A study of Saccharomyces cerevisiae with 4 samples.

Results

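The proteasome genes examined here were the 33 genes that encode the subunits of the proteasome of budding yeast (Saccharomyces cerevisiae), 14 of the core particle and 19 of the regulatory particle, out of 6002 nuclear protein-coding genes. They were taken by symbol from a RefSeq gene table of the R64 assembly, and all 33 symbols matched. Chromatin came from 2 strains, a strain with the genotype label Acs2-FLAG and an untagged strain; the labels give no further alleles. Acs2 is an acetyl-CoA synthetase of the nucleus and cytosol, which makes acetyl-CoA from acetate. Both strains were grown at 28 °C in YPD, a rich medium, with 2% glucose to an optical density of 0.7 to 1.0, and both were crosslinked with 1% formaldehyde. Each strain gave 1 immunoprecipitate made with the M2 antibody against FLAG and 1 input without antibody. The 4 libraries therefore form 4 groups of 1 library, and neither a replicate error nor a test between strains can be given. The 2 deposited peak lists held 912 peaks for the Acs2-FLAG immunoprecipitate and 34 peaks for the untagged immunoprecipitate.

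The proteasome is the protease that degrades proteins marked with ubiquitin. Its core particle is a barrel of alpha and beta rings, with the proteolytic sites on the inner faces of the beta rings. The regulatory particle caps the barrel: its base holds the Rpt ATPases that unfold substrates and receptors for ubiquitin, and its lid removes ubiquitin chains. In yeast the genes of both particles are transcribed together under the factor Rpn4, and they are active in growing cells.

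A gene was counted as having a peak when a peak interval met the region from 500 bp upstream of its start to its end. On this count 14 of the 33 proteasome genes (42.4%) had an Acs2-FLAG peak, beside 20.6% of all 6002 genes. By particle, these were 9 of 14 core genes (64.3%) and 5 of 19 regulatory genes (26.3%). Peaks whose summit, the position of the highest signal, lay inside the gene itself were found at 7 of 14 core genes and at 1 of 19 regulatory genes, RPN10, beside 7.75% of all genes. The genes within a particle are not replicates of each other, and the counts describe 1 library, so the difference between the particles was not tested.

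By subcomplex, a peak met 5 of 7 alpha ring genes, 4 of 7 beta ring genes, 3 of 10 base genes and 2 of 9 lid genes. A summit lay inside 3 of the alpha ring genes, 4 of the beta ring genes, 1 base gene and 0 lid genes. The core genes are short, with a median length of 764.5 bp against 1290 bp for the regulatory genes and 1200 bp for all genes. Among the 827 nuclear genes within the length range of the core genes (597 to 867 bp, the core genes included), 24.2% had a peak and 9.92% held a summit. The 2 regulatory genes within that range, RPN10 and RPN12, both had a peak. RPN10 held a summit, whereas the peak at RPN12 had its summit past the gene end in HXK1.

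**Figure D1:**
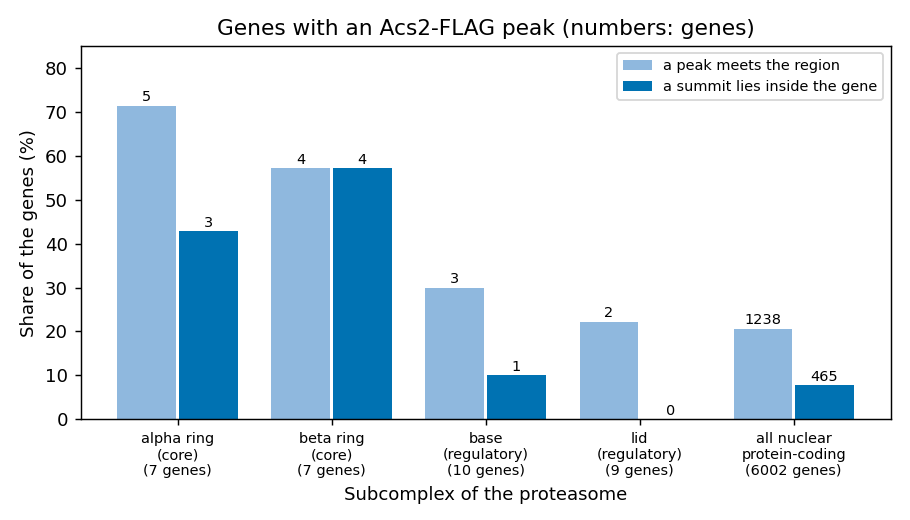
Share of the genes of each subcomplex, in percent, met by an Acs2-FLAG peak between 500 bp before the start and the gene end (light bars) and with a summit inside the gene (dark bars), beside all nuclear protein-coding genes; the numbers above the bars count genes in 1 library, without error bars. The alpha and beta rings of the core stand at 71.4% and 57.1% on the first measure, above the base at 30.0%, the lid at 22.2% and all genes at 20.6%.

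The core count rested on weak peaks. When only peaks whose −log10 q reached 5 were counted, 3 of 14 core genes (PUP1, PRE5 and PRE1) and all 5 of the regulatory genes still had one, beside 17.6% of all genes. A summit inside the gene was then left at 1 core gene, PUP1, and at 1 regulatory gene, RPN10, beside 5.78% of all genes. Among the 456 peaks with the highest folds, 1 core gene (PRE1) and 3 regulatory genes (RPT2, RPN12 and SEM1) had a peak, beside 10.7% of all genes, and 0 of the 33 genes held a summit, beside 2.02% of all genes.

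The 8 summits inside proteasome genes had folds from 1.16 to 1.32, where the fold is the authors' enrichment at the summit over the local background and each interval is a 95% exact Poisson interval that covers counting error only. They ranked between 699 and 908 among the 912 peaks. The strongest of the core was at PUP1 (YOR157C, chromosome XV, 630966 to 631751), which encodes the beta ring subunit with trypsin-like activity. Its summit held 384 fragments over a background of 291.1, a fold of 1.32 (1.19 to 1.46) with a −log10 q of 5.64. The weakest was at PRE3 (YJL001W, chromosome X, 435163 to 435926), the beta ring subunit with caspase-like activity, with 399 fragments over 343.4, a fold of 1.16 (1.05 to 1.28) and a −log10 q of 1.59. PRE2 (YPR103W, chromosome XVI, 732349 to 733212), the beta ring subunit with chymotrypsin-like activity, had 375 fragments over 298.7, a fold of 1.25 (1.13 to 1.39) and a −log10 q of 3.69. PUP1, PRE3 and PRE2, the genes of the proteolytically active subunits, thus each held a weak summit, and only that at PUP1 reached a −log10 q of 5. Weak summits also lay inside PRE1, PRE6, PUP2, PRE10 and RPN10, so they were not particular to the genes of active subunits. Of all genes, 7.75% held a summit.

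PRE1 (YER012W, chromosome V, 177835 to 178431), a beta ring subunit without proteolytic activity, was the only proteasome gene met by 2 peaks. The one with its summit inside the gene had 398 fragments over 321.4 and a fold of 1.24 (1.12 to 1.37). The other beta ring genes, PUP3, PRE7 and PRE4, had no peak.

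In the alpha ring, which forms the gate of the barrel, PRE10 (YOR362C, chromosome XV, 1017880 to 1018746) held a summit of 397 fragments over 312.2, a fold of 1.27 (1.15 to 1.40). PUP2 (YGR253C, chromosome VII, 998358 to 999140) had 380 fragments over 310.0 and a fold of 1.22 (1.11 to 1.35). PRE6 (YOL038W, chromosome XV, 255337 to 256101) had 405 fragments over 335.7 and a fold of 1.21 (1.09 to 1.33). SCL1 and PRE5 were met by peaks with summits outside the gene. PRE8 had no peak, and neither had PRE9, the gene of the core subunit that yeast can live without.

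RPN10 (YHR200W, chromosome VIII, 499079 to 499885), a ubiquitin receptor of the base, held the only summit inside a regulatory gene, with 405 fragments over 308.3, a fold of 1.31 (1.19 to 1.45) and a −log10 q of 5.78. The counting intervals of these 8 summits all overlapped, since the highest lower bound, 1.19, lay below the lowest upper bound, 1.28. No order among the 8 genes can be read from their folds. All the lower bounds lay above 1. This follows from the peak call, which kept only positions above the background, and is no separate evidence of enrichment.

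**Figure D2:**
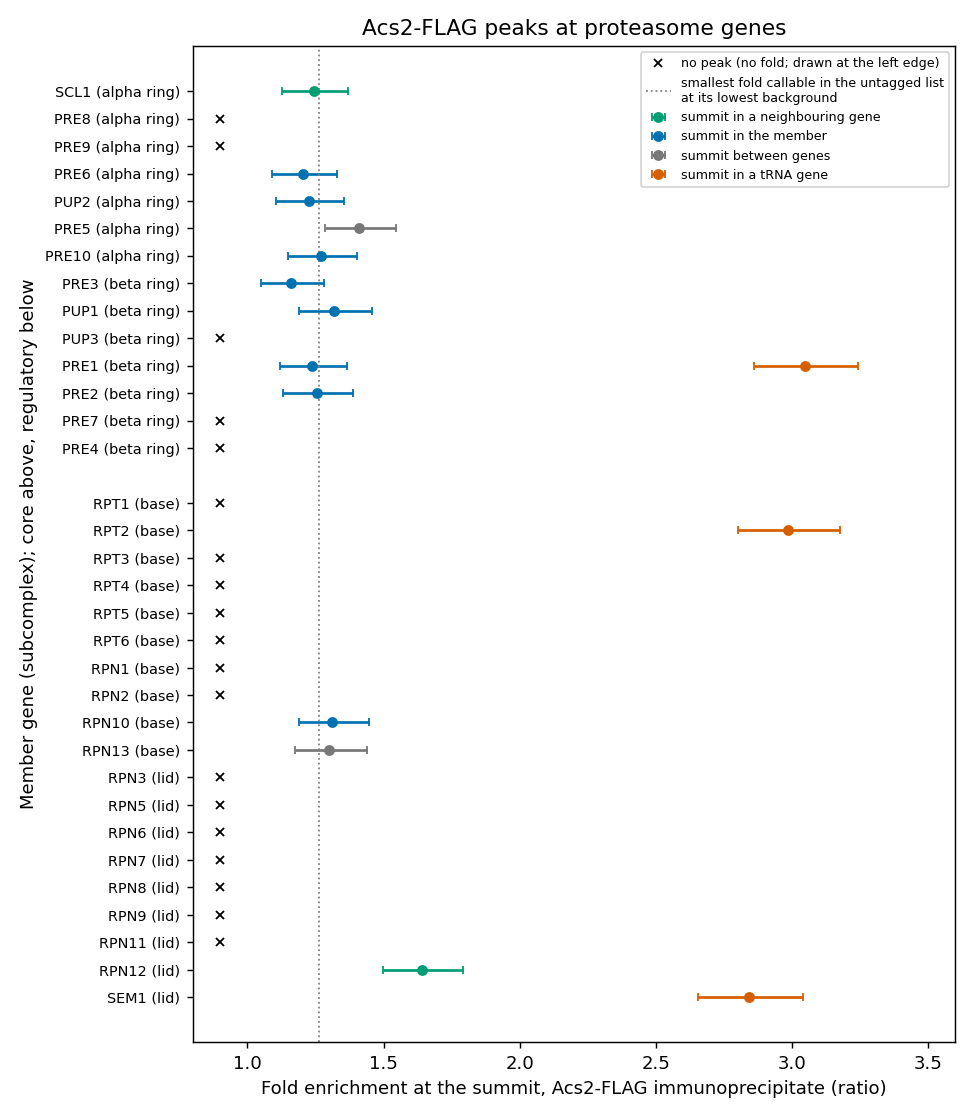
Fold enrichment at the summit (x axis, a ratio) of each Acs2-FLAG peak at each of the 33 proteasome genes, core above and regulatory below, coloured by where the summit lay; bars are 95% counting intervals of 1 library, crosses are genes without a peak, and the dotted line is the smallest fold callable in the untagged list at its lowest background (1.26). Summits inside the genes sit between 1.16 and 1.32, and the 3 peaks with folds near 3 have their summits in tRNA genes.

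Set beside other genes, these summits were at the weak end. The 8 proteasome genes had a median fold of 1.25, and the 465 nuclear protein-coding genes that held a summit had folds with a median of 1.38 (quartiles 1.28 and 1.64). Ordered from the lowest fold, PRE3 stood at place 3, PRE6 at 18 and PUP2 at 39, and the highest of the 8, PUP1, at 160 of 465. The median −log10 q was 3.57 for the 8 genes and 8.79 for the 465.

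**Figure D3:**
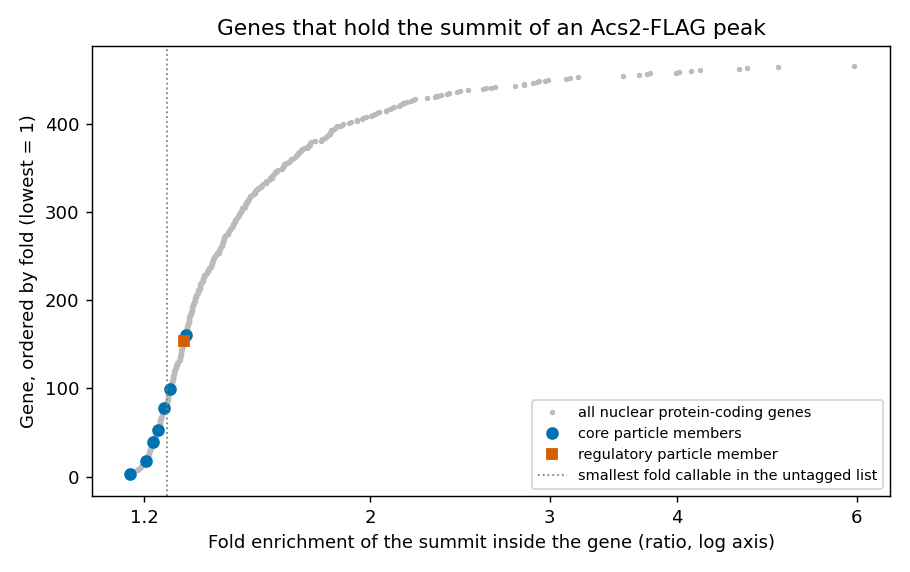
Fold enrichment (x axis, log scale) of the strongest summit inside each of the 465 nuclear protein-coding genes that hold one, in order of fold (y axis); grey points are all such genes, circles the 7 core genes, the square RPN10, and the dotted line is the smallest fold callable in the untagged list at its lowest background. The 8 proteasome genes all lie among the lowest 160 of the 465.

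Of the 8 summits inside proteasome genes, 3 fell before the midpoint of the gene (PRE6, PUP1 and PRE1) and 5 after it, from 22.5% of the way along PRE6 to 94.4% along RPN10. The median position was 58.3% for the 8 genes and 59.5% for the 465 genes with a summit. The intervals were 312 to 686 bp wide and covered 27.8% to 83.0% of the gene. Only 1 of the 8, at PUP1, reached upstream of the annotated start, by 34 bp. No summit lay in the upstream 500 bp of a proteasome gene outside another gene: the upstream summits of RPT2 and SEM1 lay in tRNA genes. The share of all genes with such an upstream summit was not counted. A summit lay anywhere in the region, upstream part included, at 10 of 33 proteasome genes, beside 12.2% of all genes. It lay inside the gene at 8 of 33, beside 7.75% of all genes.

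**Figure D4:**
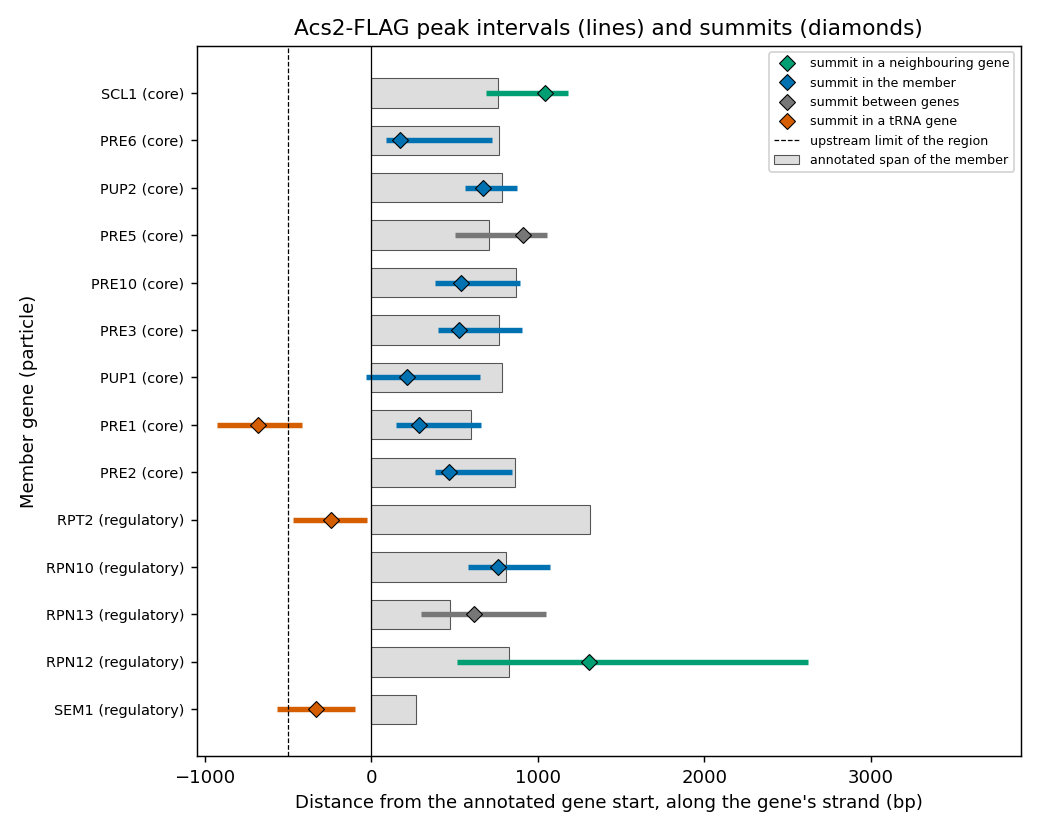
Acs2-FLAG peak intervals (coloured lines) and their summits (diamonds) at the 14 proteasome genes with a peak, by distance in bp from the annotated start along the strand of the gene; grey boxes are the genes and the dashed line marks 500 bp upstream. Of the 15 summits, 8 fall inside the boxes, 4 past the gene end and 3 upstream of the start, and all of those upstream lie in tRNA genes.

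The highest folds at proteasome genes belonged to tRNA genes next to them. The upstream peak of PRE1 had 986 fragments over 323.0, a fold of 3.05 (2.86 to 3.24), and its summit lay 679 bp upstream of the start in the tRNA gene YNCE0012W. It met the region of PRE1 by 81 bp. The peak at RPT2 (YDL007W, chromosome IV, 438047 to 439360), an ATPase of the base, had 995 fragments over 332.8, a fold of 2.98 (2.80 to 3.18), and its summit lay 244 bp upstream in YNCD0006W. The peak at SEM1 (YDR363W-A, chromosome IV, 1202128 to 1202397), a small lid subunit, had 852 fragments over 299.1, a fold of 2.84 (2.65 to 3.04), and its summit lay 331 bp upstream in YNCD0026W.

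These counting intervals overlapped each other and lay above those of every other peak at a proteasome gene. Over all 264 peaks that met a tRNA gene the median fold was 3.18 and the quartiles were 2.89 and 3.51, so that PRE1 and RPT2 lay between the quartiles and SEM1 below the lower one. None of the 3 intervals reached into the proteasome gene itself. A peak at a tRNA gene met the region of 3 of 33 proteasome genes (9.09%), beside 4.82% of all genes. Since tRNA genes often have near-identical copies elsewhere, the fold at any single copy is uncertain. Without the peaks at tRNA genes, 9 of 14 core and 3 of 19 regulatory genes still had a peak, beside 16.2% of all genes. The median of the strongest folds was then 1.24 over the core genes and 1.31 over the regulatory genes, beside 1.47 over all genes with a peak. With the peaks at tRNA genes it was 1.25 and 1.64, beside 1.64 over all 1238 genes with a peak.

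Another 4 peaks met a proteasome gene at its 3-prime end and had their summits beyond it. At RPN12 (YFR052W, chromosome VI, 252505 to 253329), a lid subunit, a peak 2111 bp wide had 478 fragments over 291.1 and a fold of 1.64 (1.50 to 1.79), with the summit 485 bp past the gene end in HXK1, which encodes a hexokinase. At SCL1 (YGL011C, chromosome VII, 474489 to 475247), an alpha ring subunit, a fold of 1.24 (1.13 to 1.37) had its summit 285 bp past the gene end in ERG4, which encodes an enzyme of ergosterol synthesis. This peak covered 70 bp of SCL1 and gave the smallest overlap of all 15 pairs. At PRE5 (YMR314W, chromosome XIII, 901709 to 902413), an alpha ring subunit, the fold was 1.41 (1.29 to 1.55) and the summit lay between genes, 208 bp past the end of PRE5 and 179 bp from YMR315W. At RPN13 (YLR421C, chromosome XII, 965090 to 965560), a ubiquitin receptor of the base, the fold was 1.30 (1.17 to 1.44) and the summit lay 144 bp past the gene end and 67 bp from URA4, a gene of pyrimidine synthesis. Each of these 4 folds belongs to a position outside the proteasome gene.

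The remaining 19 genes, 5 of the core and 14 of the regulatory particle, had no peak. The core genes were PRE8, PRE9, PUP3, PRE7 and PRE4. The base genes were the ATPase genes RPT1, RPT3, RPT4, RPT5 and RPT6 and the scaffold genes RPN1 and RPN2. The lid genes were RPN3, RPN5, RPN6, RPN7, RPN8, RPN9 and RPN11, the last of which encodes the deubiquitinating enzyme of the lid. The nearest peak lay a median of 5512 bp from their regions, with a range of 55 to 27115 bp.

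For 3 of the 19 it lay within 1000 bp. A peak of fold 1.27 with its summit in the mannosyltransferase gene PMT1 stopped 55 bp short of the region of RPN6. A peak of fold 2.94 at the tRNA gene YNCG0018C lay 210 bp upstream of the region of RPT6, and a peak of fold 3.92 at the tRNA gene YNCP0016W lay 300 bp downstream of RPN7. At RPN3 the nearest peak was 1871 bp away, with a fold of 1.41 and its summit in ISC1. With the upstream reach set at 1000 bp, RPN6 and RPT6 were added and 7 of 19 regulatory genes had a peak, beside 25.5% of all genes.

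The untagged list held no peak at a proteasome gene (0 of 33), beside 0.533% of all genes, and none of the 15 peaks above shared a base with an untagged peak. The untagged peak nearest to any member lay 4216 bp from the region of SCL1, at the proton pump gene PMA1, with a fold of 1.48. For 7 of the 33 genes, the whole chromosome held no untagged peak. The list was limited in the weak signal it could show. At its lowest recovered background of 198.4 fragments per base, the smallest fold that reaches its lowest −log10 p was 1.26; smaller folds were called where the local background was higher, down to 1.03. The folds of 5 of the 8 summits inside proteasome genes (PRE6, PUP2, PRE3, PRE1 and PRE2) were below this value, as against 85 of all 465 genes with a summit, and the fold at SCL1 was below it too. At that background, a signal as weak as that in the Acs2-FLAG library would have gone uncalled in the untagged library, so the lack of an untagged peak at these genes does not show that their signal needed the tag. PRE10, PUP1 and RPN10 were above the value, and all their counting intervals reached below it.

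Of 14 genes that assemble or accompany the proteasome, 2 had a peak (14.3%, beside 20.6% of all genes) and 0 held a summit (beside 7.75%). At RPN4, which encodes the transcription factor of the proteasome genes, the fold was 1.36 (1.24 to 1.49) and the summit lay in its upstream region. At POC4, an assembly chaperone of the core, the fold was 1.25 (1.13 to 1.38) with the summit in the small nucleolar RNA gene SNR17B. The other genes of this list, UMP1, PBA1, ADD66, IRC25, NAS2, NAS6, RPN14, HSM3, BLM10, ECM29, UBP6 and HUL5, had no peak.

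Among 15 genes of ubiquitin and its transfer and delivery, 6 had a peak (40.0%, beside 20.6% of all genes) and 2 held a summit (13.3%, beside 7.75%). The genes with a summit were the polyubiquitin gene UBI4, with a fold of 1.60 (1.47 to 1.75), and RPS31, which encodes a fusion of ubiquitin with a ribosomal protein, with a fold of 1.74 (1.60 to 1.90). Their counting intervals lay above those of all 8 summits inside proteasome genes. The peak at RPL40B, the gene of another such fusion, had a fold of 1.41 (1.28 to 1.55) with its summit in the upstream region. The peaks at the activating enzyme gene UBA1, the conjugating enzyme gene UBC4 and the segregase gene CDC48 all had their summits in another gene. The fold was 1.70 at UBA1 with the summit in SNR64, 3.65 at UBC4 with the summit in the tRNA gene YNCB0015W, and 1.81 at CDC48 with the summit in HNT1. RPL40A, UBC5, UFD1, NPL4, RAD23, DSK2, DDI1, UBR1 and UFD4 had no peak, and the untagged list had none at any gene of either list.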

How the data were processed

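The processed files are 2 narrowPeak lists, 1 per immunoprecipitate and not pooled. The submitters' processing notes name Trimmomatic, BWA, Picard, MACS2 and the build R64. The sources used here give no settings, duplicate handling or read totals. Each list pairs an immunoprecipitate with the same strain's input, per the file headers, which name the input first and do not say which served as background. Both were read as immunoprecipitate over input, and every fold rests on that reading. The deposited fold is a ratio at the summit over the local background. The deposited −log10 p and −log10 q belong to the summit, and the deposited score, 10 times the −log10 q rounded down, was not used.

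Chromosome accessions were translated to names: on every chromosome 70% or more of the tRNA genes met a peak under the own name and 30.8% or fewer under another. Strand was read from systematic names. The fragment count n and the background were solved from fold = (n + 1)/(background + 1) and a Poisson tail. The count was whole within 0.05 at 907 of 912 Acs2-FLAG and 30 of 34 untagged peaks. Intervals hold the background fixed. A summit was assigned to the member first, then to a tRNA gene, another RNA gene, another coding gene, the upstream 500 bp, or the space between genes. Where a gene met several peaks, the strongest by fold was used for medians.

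The members and gene lists were chosen with earlier results of these data known. All members are named, with the genes that hold the summits. Alternatives were the upstream length, the overlap rule, the threshold and the peaks left out. Overlap counting and solving were tested on simulated data. Tools were scipy 1.17.1, pandas 2.3.3, numpy 2.4.6 and matplotlib 3.10.9 under Python 3.11.15.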

Additional observations from a re-analysis of the deposited data

How the results depend on the processing

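The count of 14 of 33 proteasome genes with a peak was 8 with a −log10 q of at least 5 and 4 among the 456 peaks with the highest folds. The share of all genes, 20.6%, was 17.6% and 10.7% under these limits. The core count of 9 was 3 and 1 under those limits. The core median fold of 1.25 was then 1.41 and 3.05, beside 1.81 and 2.63 over all genes with a peak. The 1.41 was the peak at PRE5 with its summit between genes, and the 3.05 was the tRNA peak of PRE1 alone. Both limits leave out weak peaks and so raise such medians. The regulatory count of 5 was 3 with the gene span alone, with the summit in the region, among the 456 and without peaks at tRNA genes, while the share of all genes, 20.6%, was 13.5%, 12.2%, 10.7% and 16.2%. The regulatory median of 1.64, then over 3 genes each, was 1.31, 2.84, 2.84 and 1.31 under the same settings in that order. Over all genes with a peak it was 1.54, 1.48, 2.63 and 1.47. Both values of 2.84 were the peak at SEM1, whose summit lay in a tRNA gene. With 1000 bp upstream, 9 proteasome genes in place of 5 had the strongest peak at a neighbour or tRNA gene. The share of all genes in that class was not counted, and the share of all genes with any peak went from 20.6% to 25.5%. In alternatives chosen after seeing the data, the 7 core summits inside genes were 1 at a −log10 q of at least 5, 0 among the 456 and 2 at folds of 1.26 or more, the smallest that the untagged list could call at its lowest background; the share of all genes, 7.75%, was 5.78%, 2.02% and 6.33%. The 1 regulatory summit was 0 among the 456. The causes were not tested. The untagged count was 0 under every setting run. It could not have differed, since the nearest untagged peak lay 4216 bp from a region, beyond the reach of every setting. The planned count of Rpn4 motifs was not run, since no sequence was used here. No paired analysis was possible because each group holds 1 library, which also means that no library could be left out. Depth limits the weak peaks: at the lowest background of the Acs2-FLAG list, 291.1 fragments per base, 1.16 was the smallest fold that reached its lowest −log10 p.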
